A study of Mus musculus with 16 samples.

Results

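The genes described here encode the pore-forming subunits of the AMPA receptor and the small membrane proteins that travel with it. They are Gria1, Gria2, Gria3 and Gria4 for the subunits, Cacng2, Cacng3 and Cacng8 for transmembrane AMPA receptor regulatory proteins (TARPs), and Cnih2 for a cornichon protein. All probe sets that the array annotation gives to one of these symbols alone were taken, whatever their signal, which came to 17 of the 45101 probe sets on the array, for 8 of 18193 named genes. A probe set is a group of short probes for one stretch of a transcript. Gria2, Gria4 and Cacng2 had 3 probe sets each, Gria1, Gria3 and Cacng8 had 2 each, and Cacng3 and Cnih2 had 1 each. All 17 passed the filter on low signals, and no further probe set in the annotation names a member along with another gene.

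RNA came from the hippocampus of male mice aged 2 months, of a strain labelled C56/BL6, and was hybridised to 16 Affymetrix arrays. The groups of 4 arrays each carry the titles N-dCKO, with the genotype APP-/-; APLP2-/-, APLP2KO, with the genotype APLP2-/-, APPKO, with the genotype APP-/-, and WT, labelled wild type. The series title calls the double knockout neuronal and conditional, so its loss of both genes may leave cells of other types with App and Aplp2. Neither the promoter that drives the deletion nor any engineered allele of the WT mice is named in the labels. The labels also do not call the samples of a group separate animals, so the p-values cover the differences among these samples, part of which may be technical.

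AMPA receptors carry most fast excitatory transmission in the brain. Each receptor is a tetramer of the subunits GluA1 to GluA4, encoded by the Gria genes, and an edited GluA2 subunit makes the channel nearly impermeable to calcium. In the hippocampus GluA1, GluA2 and GluA3 make up most receptors of pyramidal neurons, while GluA4 is prominent in parvalbumin interneurons. TARPs and cornichons bind the receptor in the membrane, help it reach the cell surface and slow its gating, and the TARP encoded by Cacng8 is enriched in the hippocampus.

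The arrays were alike in overall level, with median signals between 79.7 and 102, and the labels held for the deleted genes. App read 2191 ± 195 in N-dCKO, 19654 ± 1410 in APLP2KO, 2511 ± 180.4 in APPKO and 18499 ± 1098 in WT (SD, n = 4). Aplp2 read 998.5 ± 122 in N-dCKO, 1162 ± 276 in APLP2KO, 5778 ± 277 in APPKO and 5984 ± 229 in WT. The mean App signal left in N-dCKO was 11.8% of WT, and in APPKO 13.6%. For Aplp2 it was 16.7% in N-dCKO and 19.4% in APLP2KO. By these means N-dCKO kept no more signal of either gene than the single knockouts. Neuronal markers of the hippocampus were present on every array, with Slc17a7, the vesicular glutamate transporter of excitatory neurons, at 2065 to 2673, Prox1 of dentate granule neurons at 497 to 837, Wfs1 of CA1 pyramidal neurons at 2318 to 3435 and Gad1 of GABAergic neurons at 12145 to 15361. Genes of the choroid plexus, a tissue of the ventricles, were low on N-dCKO arrays: all 12 tested genes of that list fell against WT, with mean log2 signals of the list of 5.44 to 8.35 in N-dCKO and 8.62 to 9.62 in WT. Of 12 tested microglial genes 5 fell in N-dCKO against WT, as did 1 of 9 oligodendrocyte genes and 1 of 8 genes of CA pyramidal neurons, Spink8 (-1.10 ± 0.19, limma adjusted p = 0.00588). Spink8 did not stand for its list, in which 5 of 8 genes were positive in that comparison (median log2 fold change 0.03). The lowest value of that list in APLP2KO against WT was -0.74, with 0 called. RNA quality was read from Gapdh, as its 3' signal over its 5' signal, and this was 0.797 to 0.834 in N-dCKO and 0.752 to 0.786 in WT.

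Of the Gria genes, promoter sequences of 300 bases were held for Gria2 and Gria4, and they are shown because Gria2 decides the calcium permeability of the receptor and Gria4 was the member whose N-dCKO arrays stood apart from WT. Both come from RefSeq on the build GRCm38.p6, run across the start of the gene, and are written 5' to 3' on the strand of the gene. Capitals mark the core of the site of nuclear respiratory factor 1 (NRF-1), searched on both strands.
Gria2, chr3:80802786-80803085, minus strand: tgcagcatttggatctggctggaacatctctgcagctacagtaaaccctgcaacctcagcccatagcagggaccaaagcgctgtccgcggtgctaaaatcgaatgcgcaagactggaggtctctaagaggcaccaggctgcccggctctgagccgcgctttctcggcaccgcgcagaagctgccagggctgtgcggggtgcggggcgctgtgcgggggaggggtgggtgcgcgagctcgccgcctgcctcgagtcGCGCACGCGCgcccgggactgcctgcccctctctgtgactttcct
Gria4, chr9:4796185-4796484, minus strand: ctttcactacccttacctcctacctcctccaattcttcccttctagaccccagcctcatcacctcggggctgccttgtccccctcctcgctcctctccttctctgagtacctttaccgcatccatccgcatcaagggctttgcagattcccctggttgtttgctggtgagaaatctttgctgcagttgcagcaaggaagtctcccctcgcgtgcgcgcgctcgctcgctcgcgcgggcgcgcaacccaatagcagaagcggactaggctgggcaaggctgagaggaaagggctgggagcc
The Gria2 window held 1 match to the NRF-1 core, and the Gria4 window held 0. Of all 32851 promoter windows in the table, 4.6% held at least 1 match. Among the 6 member promoters held there, only that of Gria2 matched. The GC box, GGGCGG on either strand, was found in 35.7% of all windows and in 1 of the 6, that of Cnih2. A match is a run of letters and not a measured site, and no binding was measured in this series.

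No probe set of the AMPA receptor genes passed the threshold of the test over all probe sets. The arrays of both groups were fully apart in 4 of the 102 member tests, for Gria4 and Cacng2. Among all tested probe sets, the share fully apart ran from 2.59% to 6.77% over the 6 comparisons. The fit with limma over 22503 probe sets, with Benjamini-Hochberg adjustment over all of them and a threshold of 0.05, called 0 of 17 in each of the 6 comparisons of a pair of groups, 0 in the interaction of both losses, which is N-dCKO minus APPKO minus APLP2KO plus WT, and 0 in the test for any difference among the groups. All 17 were tested. In N-dCKO against WT, 0.667% of all tested probe sets were called, and 1 member had an unadjusted p below 0.05 where 11.2% of all probe sets did. In APLP2KO against WT the called share of all probe sets was 0.147%, with 1 member at an unadjusted p below 0.05 against 7.1% of all, and in APPKO against WT it was 0.0133%, with 0 members against 4.9%. Same-numbered APPKO and WT arrays deviated together, and with these numbers as a block in a fit of both groups alone 9 probe sets were called in place of 3, again with 0 members. The shares called were 0.262% in N-dCKO against APPKO, 0.0267% in N-dCKO against APLP2KO and 0.156% in APLP2KO against APPKO, and there 3, 2 and 1 members had an unadjusted p below 0.05, against 7.48%, 7.5% and 7.3% of all probe sets. The arrays of both groups did not overlap for 0 members in APPKO against WT, APLP2KO against WT and N-dCKO against APPKO, where 2.59%, 4.15% and 3.8% of all probe sets did not overlap. For the interaction, 0% of all probe sets were called and 4.14% had an unadjusted p below 0.05, with 0 members. For any difference among groups the shares were 0.435% and 9.12%, also with 0 members.

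As a list, the members lay slightly above WT in N-dCKO and near it in the single knockouts. The log2 fold change was positive for 15 of 17 probe sets in N-dCKO against WT, with a median of 0.09, where 52.0% of all tested probe sets were positive and their median was 0.01. In APLP2KO against WT 10 of 17 were positive (median 0.03), and in APPKO against WT 11 of 17 (median 0.05), while all probe sets had a median of 0.001 in each. Centring each array on its median signal lowered all probe sets alike, to a median of -0.08 in N-dCKO, -0.08 in APLP2KO and -0.09 in APPKO against WT. The member medians were then 0.004, -0.05 and -0.04, so the members lay above all probe sets by about as much as before, while 10, 6 and 5 of 17 were positive. The 3 comparisons share the WT arrays. Counted by gene, 8 of 8 members were positive in N-dCKO against WT, with a median of 0.07. Markers of excitatory neurons had 5 of 6 positive (median 0.07), of neurons 7 of 8 (0.02) and of GABAergic interneurons 9 of 9 (0.16). Those of CA pyramidal neurons had 5 of 8 positive (0.03) and of dentate granule neurons 1 of 6 (-0.20). A positive lean was thus not particular to the members.

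**Figure D1:**
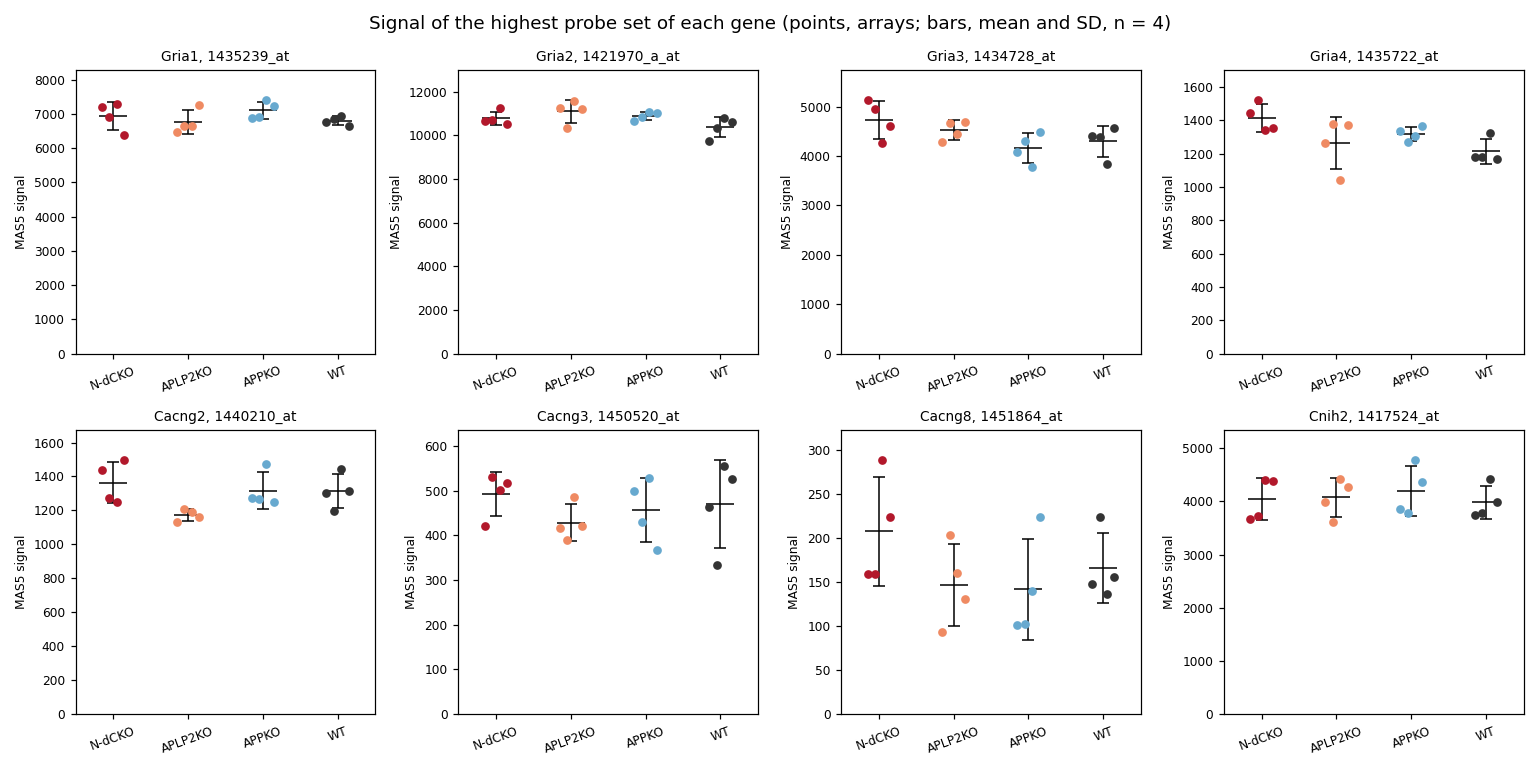
MAS5 signal (linear axis from 0) of the probe set with the highest mean signal for each of the 8 genes, by genotype, with 1 point per array in order of its number and bars for the mean and SD of 4 arrays. The groups overlap in most panels, while every N-dCKO point of Gria4 lies above every WT point and every N-dCKO point of Cacng2 above every APLP2KO point.

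Gria1 encodes GluA1, the subunit most linked to activity-driven delivery of receptors to synapses. Its probe set with the highest signal (1435239_at) read 7192, 6913, 7298 and 6377 on the N-dCKO arrays, 6469, 6646, 6647 and 7264 on the APLP2KO arrays, 6876, 6913, 7408 and 7238 on the APPKO arrays and 6775, 6846, 6949 and 6660.2 on the WT arrays. N-dCKO held both the lowest and one of the highest of the 16 values, and all groups overlapped. The fold change on the log2 scale against WT was 0.03 ± 0.05 in N-dCKO (SE, limma adjusted p = 0.900), -0.01 ± 0.05 in APLP2KO (0.975) and 0.06 ± 0.05 in APPKO (0.9998). Its 95% interval in N-dCKO against WT ran from -5.41% to 9.75%. The other Gria1 probe set (1448972_at) averaged 6083 ± 585 in N-dCKO, 5930.2 ± 687 in APLP2KO, 5386 ± 360.2 in APPKO and 5593 ± 583 in WT (SD, n = 4), with wider scatter and 0 calls. The order of the group means differed between the probe sets: APPKO was highest by the first and lowest by the second, and no step of either order was called.

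Gria2 encodes GluA2, whose presence sets the calcium permeability of the receptor. The probe set with the highest signal (1421970_a_at) read 10653, 10708, 11241 and 10530.5 on the N-dCKO arrays, 11253, 10349, 11561 and 11234 on the APLP2KO arrays, 10677, 10826, 11066 and 11048 on the APPKO arrays and 9749, 10355, 10818 and 10639 on the WT arrays. The WT mean of 10390.4 was the lowest, but each knockout group overlapped with WT. The fold changes were 0.05 ± 0.05 in N-dCKO, 0.10 ± 0.05 in APLP2KO and 0.07 ± 0.05 in APPKO against WT on the log2 scale, with limma adjusted p of 0.719, 0.712 and 0.9998. This was the most evenly read probe set of all 17, with a coefficient of variation of 1.72% to 4.7% within groups, and its interval in N-dCKO against WT ran from -2.95% to 11.1%. A second probe set (1434146_at) averaged 8365 ± 793 in N-dCKO, 7919 ± 252 in APLP2KO, 7806 ± 580.4 in APPKO and 7892 ± 1206 in WT. The third (1453098_at) averaged 1366 ± 217 in N-dCKO, 1270.0 ± 202 in APLP2KO, 1291 ± 176 in APPKO and 1188 ± 151 in WT. With the centring that put the median of all probe sets at -0.08, the N-dCKO value of 1421970_a_at against WT was -0.03. In the 4 same-numbered pairs APPKO read above WT each time, both for Gria2 1421970_a_at and for Gria1 1435239_at. A fit of these pairs gave 0.07 ± 0.04 for that Gria2 probe set (limma adjusted p = 0.709) and 0.06 ± 0.04 for Gria1 (0.754). Gria2 1453098_at also read above WT in all 4 pairs, and its limma adjusted p of 0.676 was the smallest of the members in the paired fit. Of the 17 member probe sets 4 had 1 sign in all pairs, as did 16.1% of all tested probe sets.

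Gria3, on the X chromosome, encodes GluA3, which pairs with GluA2 in receptors that cycle constitutively. Its probe set with the highest signal (1434728_at) read 5136, 4953, 4270.2 and 4603 on the N-dCKO arrays, 4281, 4681, 4445 and 4697 on the APLP2KO arrays, 4078, 4309, 3788 and 4487 on the APPKO arrays and 4401, 4393, 3838 and 4569 on the WT arrays. N-dCKO arrays 1 and 2 were the highest of all 16 and array 3 lay within the ranges of APPKO and WT and below all APLP2KO arrays. The log2 fold change was 0.19 ± 0.07 in N-dCKO against APPKO (unadjusted p = 0.0142, limma adjusted p = 0.520), the member value with the smallest unadjusted p in that comparison. Against WT it was 0.14 ± 0.07 in N-dCKO (adjusted p = 0.465), 0.08 ± 0.07 in APLP2KO (0.865) and -0.05 ± 0.07 in APPKO (0.9998). In all 4 same-numbered pairs APPKO read below WT, with -0.05 ± 0.05 in the paired fit (adjusted p = 0.843). Of all tested probe sets, 16.1% had 1 sign in all pairs. The means ran N-dCKO, APLP2KO, WT and APPKO from high to low, and no pair in that order was called. The other Gria3 probe set (1420563_at) averaged 1792 ± 104 in N-dCKO, 1848 ± 271 in APLP2KO, 1671 ± 162 in APPKO and 1636 ± 271 in WT.

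Gria4 encodes GluA4, a subunit of fast-spiking interneurons, and was the member with the smallest p in N-dCKO against WT. Its probe set with the highest signal (1435722_at) read 1444, 1521, 1338 and 1353 on the N-dCKO arrays, 1261, 1378, 1040.2 and 1373 on the APLP2KO arrays, 1334, 1269.8, 1302 and 1368 on the APPKO arrays and 1178, 1179, 1324 and 1169 on the WT arrays. All N-dCKO arrays lay above all WT arrays, with WT array 3 close to the lowest N-dCKO array, and the APLP2KO and APPKO arrays overlapped with both. As a log2 value, the fold change in N-dCKO against WT was 0.22 ± 0.08, an interval of 3.75% to 30.8%, with an unadjusted p of 0.0126 and a limma adjusted p of 0.273. Against WT it was 0.05 ± 0.08 in APLP2KO (adjusted p = 0.933) and 0.12 ± 0.08 in APPKO (0.9998), and N-dCKO against APLP2KO gave 0.17 ± 0.08 (0.661). A second Gria4 probe set (1440891_at) read 528, 424.3, 474 and 453 on the N-dCKO arrays, 480.2, 499, 366 and 423.5 on the APLP2KO arrays, 383, 434, 341 and 412 on the APPKO arrays and 400.2, 423.9, 401 and 391 on the WT arrays. Here too no N-dCKO array was below a WT array, but the margin was under 1 signal unit between N-dCKO array 2 and WT array 2, and the log2 fold change was 0.21 ± 0.10 (adjusted p = 0.477). In N-dCKO against APPKO this probe set gave 0.26 ± 0.10, at an unadjusted p of 0.0252 and an adjusted p of 0.581. The third probe set (1421351_at) was dim, with 82.3 ± 13.7 in N-dCKO, 101 ± 31.5 in APLP2KO, 104 ± 24.1 in APPKO and 78.6 ± 23.0 in WT. These were the 2 of 17 member probe sets without overlap in N-dCKO against WT, or 11.8%, where 6.77% of all tested probe sets had none.

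Some lists of cell type markers also differed between N-dCKO and WT, in both directions. All 9 tested oligodendrocyte genes (median log2 fold change -0.50) and all 12 tested microglial genes (-0.40) were negative. The 9 oligodendrocyte genes were also all negative in APPKO against WT (median -0.48). The relation of the marker lists to the Gria4 value from array to array was not tested. All 9 tested genes of the GABAergic interneuron list had a positive log2 fold change in N-dCKO against WT, with a median of 0.16, and 1 of them rose, Reln, which encodes the matrix protein reelin (0.43 ± 0.09, limma adjusted p = 0.0288). Pvalb, which marks parvalbumin interneurons, was at 0.22 ± 0.09 (adjusted p = 0.382) and Sst, of somatostatin interneurons, at 0.01 ± 0.06 (0.986). On single arrays the mean log2 level of these genes was 11.39 to 11.47 in N-dCKO, 11.19 to 11.29 in APLP2KO, 11.24 to 11.34 in APPKO and 11.17 to 11.30 in WT. Of 10 astrocyte genes 8 were positive, with a median of 0.14 and 0 called, and the mean log2 level of that list was 11.86 to 11.88 in N-dCKO, 11.80 to 11.86 in APLP2KO, 11.80 to 11.87 in APPKO and 11.73 to 11.78 in WT. In a whole tissue, a different share of a cell type and a different RNA content per cell cannot be told apart. With each array centred on its median, the value of Gria4 1435722_at was 0.13, where all probe sets had a median of -0.08. When the Gapdh ratio entered the fit as a covariate it was 0.10 ± 0.10, and when the choroid plexus level did so it was 0.09 ± 0.14, with limma adjusted p of 0.908 and 0.937. Neither the Gapdh ratio nor the choroid plexus level overlapped between N-dCKO and WT arrays, so these fits cannot tell them apart from genotype. The part of the measures above in the Gria4 value was not tested.

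Gria4 lies on chromosome 9, which also carries Aplp2. Of 1116 tested probe sets of that chromosome, 3.23% were called in N-dCKO against WT and 2.15% in APLP2KO against WT, against 0.503% and 0.0371% of those on other chromosomes. Gria4 was not among them, and its APLP2KO arrays overlapped with WT in all 3 probe sets. Whether its position on this chromosome plays a part in its values was not tested. App lies on chromosome 16, which holds none of the 8 genes.

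**Figure D2:**
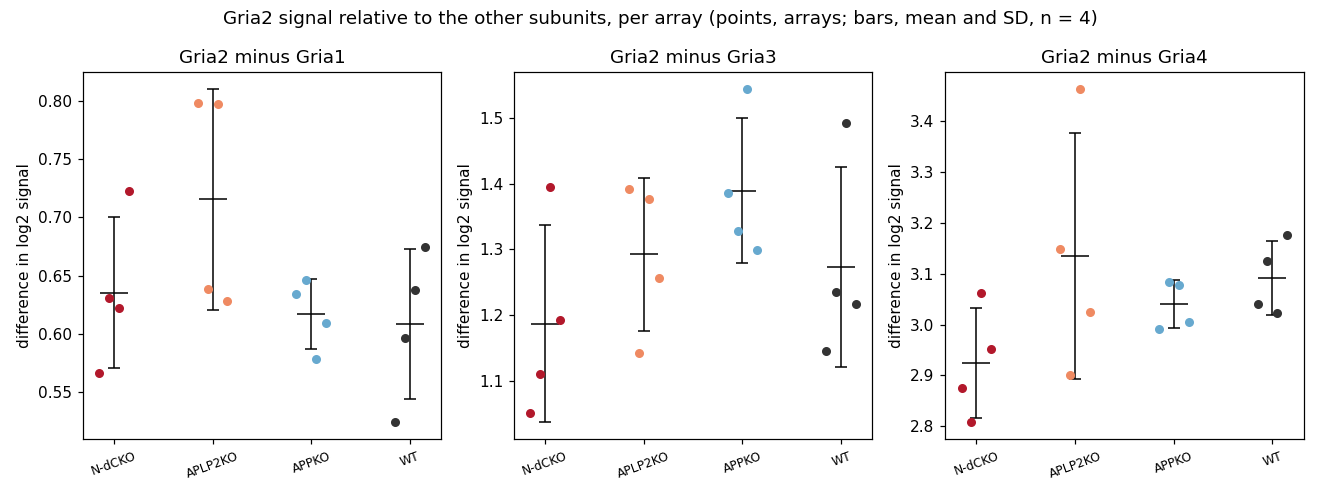
Difference in log2 signal between Gria2 and Gria1, Gria3 or Gria4 on each array (vertical axes do not start at 0 and differ between panels), by genotype, with 1 point per array and bars for the mean and SD of 4 arrays. Only shifts between groups can be read, since probe sets differ in brightness; in all 3 panels the N-dCKO points overlap with the WT points.

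The balance of Gria2 against the other subunits was followed on each array, as the difference in log2 signal between the probe sets with the highest signal. This difference carries no absolute ratio of the RNAs, because probe sets differ in brightness, and it is given without a test. Gria2 minus Gria1 was 0.64 ± 0.06 in N-dCKO, 0.72 ± 0.09 in APLP2KO, 0.62 ± 0.03 in APPKO and 0.61 ± 0.06 in WT (SD, n = 4). Gria2 minus Gria3 was 1.19 ± 0.15 in N-dCKO, 1.29 ± 0.12 in APLP2KO, 1.39 ± 0.11 in APPKO and 1.27 ± 0.15 in WT. Gria2 minus Gria4 was 2.92 ± 0.11 in N-dCKO, 3.13 ± 0.24 in APLP2KO, 3.04 ± 0.05 in APPKO and 3.09 ± 0.07 in WT. For each of these 3 differences the N-dCKO arrays overlapped with the WT arrays, the closest case being Gria4, where N-dCKO ran from 2.81 to 3.06 and WT from 3.02 to 3.18.

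Cacng2 encodes stargazin, the TARP whose loss in the stargazer mouse removes AMPA receptors from the synapses of cerebellar granule cells. Its probe set with the highest signal (1440210_at) read 1437, 1272, 1251 and 1495 on the N-dCKO arrays, 1132, 1208, 1189.9 and 1161 on the APLP2KO arrays, 1273, 1266, 1476 and 1252 on the APPKO arrays and 1302, 1195, 1445 and 1312 on the WT arrays. The APLP2KO arrays lay below all N-dCKO and all APPKO arrays, and overlapped with WT through 1 array, WT array 2. The log2 fold change was 0.21 ± 0.08 in N-dCKO against APLP2KO (unadjusted p = 0.0108, limma adjusted p = 0.514), with an interval of 3.89% to 29.2%. It was -0.16 ± 0.08 in APLP2KO against WT (adjusted p = 0.695) and -0.16 ± 0.08 in APLP2KO against APPKO (0.654), while N-dCKO against WT gave 0.05 ± 0.08 (0.858). In each of these comparisons with non-overlapping arrays, N-dCKO against APLP2KO and APLP2KO against APPKO, this was the 1 member of 17, where 4.82% and 3.9% of all tested probe sets did not overlap. The value of N-dCKO against APLP2KO was 0.07 when the choroid plexus level entered as a covariate. That level did not overlap between these groups, at 5.44 to 8.35 in N-dCKO and 8.42 to 8.78 in APLP2KO. The fit therefore cannot tell it apart from genotype.

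The other Cacng2 probe sets did not follow this order. One (1420596_at) averaged 756 ± 143 in N-dCKO, 759 ± 135 in APLP2KO, 790.5 ± 139.9 in APPKO and 766 ± 165 in WT, group means that lay within 1 SD of each other. The other (1453363_at) was the most scattered of all 17, with 181 ± 60.7 in N-dCKO, 179.6 ± 106 in APLP2KO, 215 ± 76.8 in APPKO and 174 ± 84.8 in WT. Its interval in N-dCKO against WT ran from -44.9% to 133%.

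Cacng3 encodes a TARP close in sequence to stargazin and expressed in the forebrain. Its single probe set (1450520_at) read 421, 531, 502 and 519 on the N-dCKO arrays, 416, 389, 487 and 421 on the APLP2KO arrays, 499, 430.1, 529 and 368 on the APPKO arrays and 463, 334, 556 and 527 on the WT arrays. WT had both the lowest and the highest value of all 16. On the log2 scale the fold change against WT was 0.09 ± 0.14 in N-dCKO, -0.11 ± 0.14 in APLP2KO and -0.03 ± 0.14 in APPKO (limma adjusted p = 0.876, 0.914 and 0.9998).

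Cacng8 encodes the TARP of hippocampal extrasynaptic and synaptic receptors. Its probe set with the highest signal (1451864_at) read 159, 159, 288 and 223 on the N-dCKO arrays, 92.6, 203, 159.7 and 131 on the APLP2KO arrays, 101, 102, 139.7 and 223 on the APPKO arrays and 148, 224, 136 and 156 on the WT arrays. N-dCKO array 3 was the highest and APLP2KO array 1 the lowest, and all groups overlapped. The log2 fold change was 0.55 ± 0.26 in N-dCKO against APPKO, at an unadjusted p of 0.0458 and a limma adjusted p of 0.656, with an interval of 0.784% to 113%. Against WT it was 0.29 ± 0.26 in N-dCKO (adjusted p = 0.734), -0.19 ± 0.26 in APLP2KO (0.919) and -0.26 ± 0.26 in APPKO (0.9998). When the choroid plexus level entered as a covariate the values of N-dCKO were 1.31 against WT and 1.46 against APPKO, neither of them called. That level averaged 6.42 in N-dCKO, 8.83 in APPKO and 9.11 in WT, so the fit can hardly tell it apart from genotype. The other Cacng8 probe set (1459579_at) ran the opposite way, with 109.5 ± 18.3 in N-dCKO, 116 ± 33.0 in APLP2KO, 137 ± 46.0 in APPKO and 119.9 ± 19.7 in WT. Both were dim, with single arrays close to the filter at 88.2 signal units.

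Cnih2 encodes cornichon-2, which promotes export of AMPA receptors from the endoplasmic reticulum and slows their deactivation in hippocampal pyramidal neurons. Its probe set (1417524_at) read 3664, 3732, 4401 and 4380.1 on the N-dCKO arrays, 3987, 3607, 4429 and 4281 on the APLP2KO arrays, 3851, 3777, 4774 and 4369 on the APPKO arrays and 3738, 3781, 4414 and 3993 on the WT arrays. In every group the arrays numbered 3 and 4 read above those numbered 1 and 2, so that the spread within a group was shared by all genotypes. The group means were 4044 in N-dCKO, 4076 in APLP2KO, 4193 in APPKO and 3981 in WT, within 1 SD of each other. The fold change on the log2 scale against WT was 0.02 ± 0.09 in N-dCKO, 0.03 ± 0.09 in APLP2KO and 0.07 ± 0.09 in APPKO (limma adjusted p = 0.961, 0.962 and 0.9998).

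**Figure D3:**
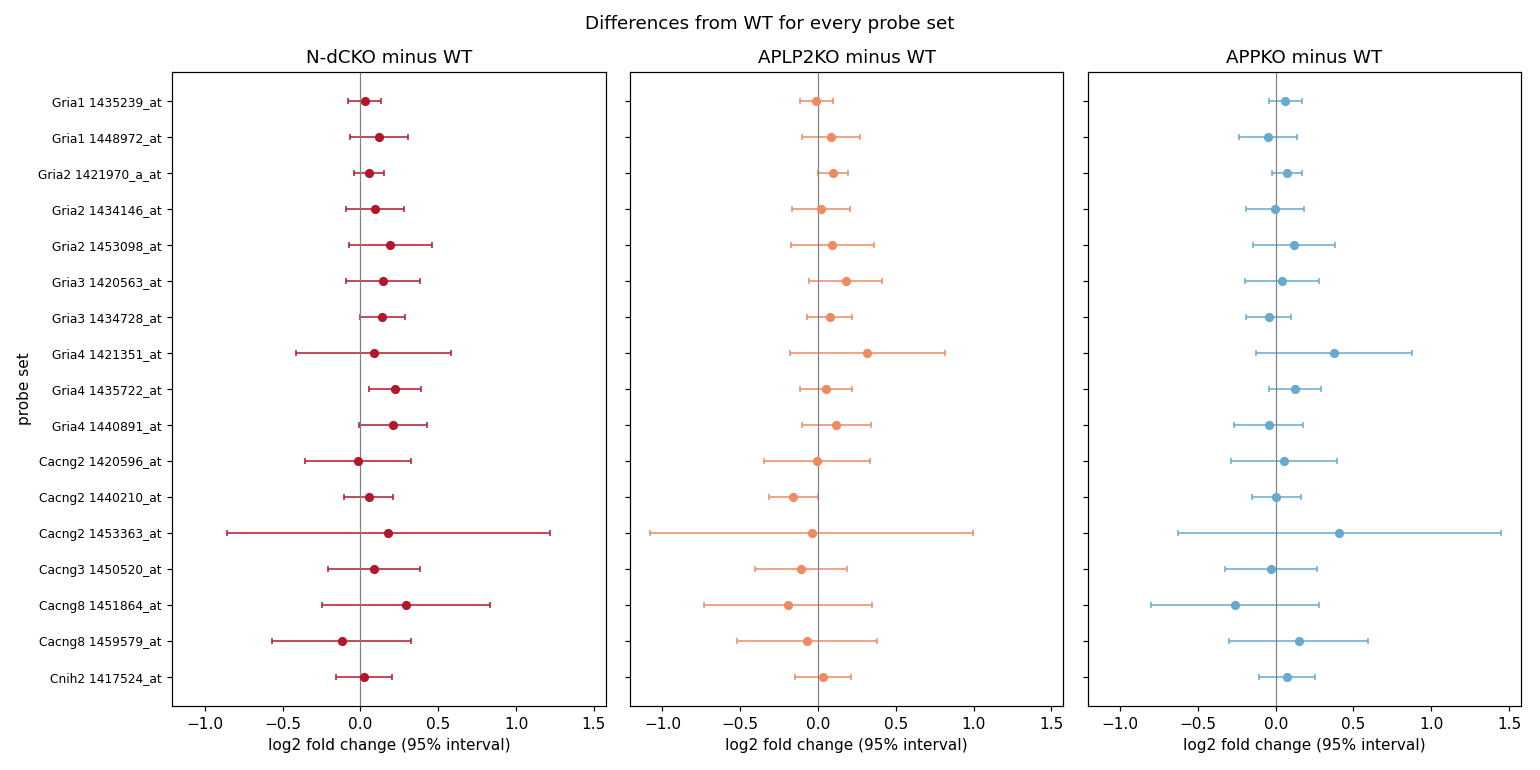
Log2 fold change with its 95% interval for all 17 probe sets (rows) in N-dCKO, APLP2KO and APPKO against WT, from the fit over all probe sets. Intervals are narrow for the bright probe sets of Gria1 and Gria2 and wide for Cacng2 1453363_at; that of Gria4 1435722_at in N-dCKO lies above 0 and that of Cacng2 1440210_at in APLP2KO just below 0, at adjusted p of 0.273 and 0.695.

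The probe sets of one gene seldom moved together from array to array. After each group mean was taken away, the correlation over the 16 arrays between the Gria1 probe sets was -0.17, and between those of Gria3 -0.10 and of Cacng8 -0.13. Among the 3 Gria2 probe sets it ran from -0.27 to 0.38, among those of Gria4 from 0.14 to 0.40 and among those of Cacng2 from -0.28 to 0.26. These values are descriptions, since the arrays of a group are few and all probe sets of an array share its scaling.

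**Figure D4:**
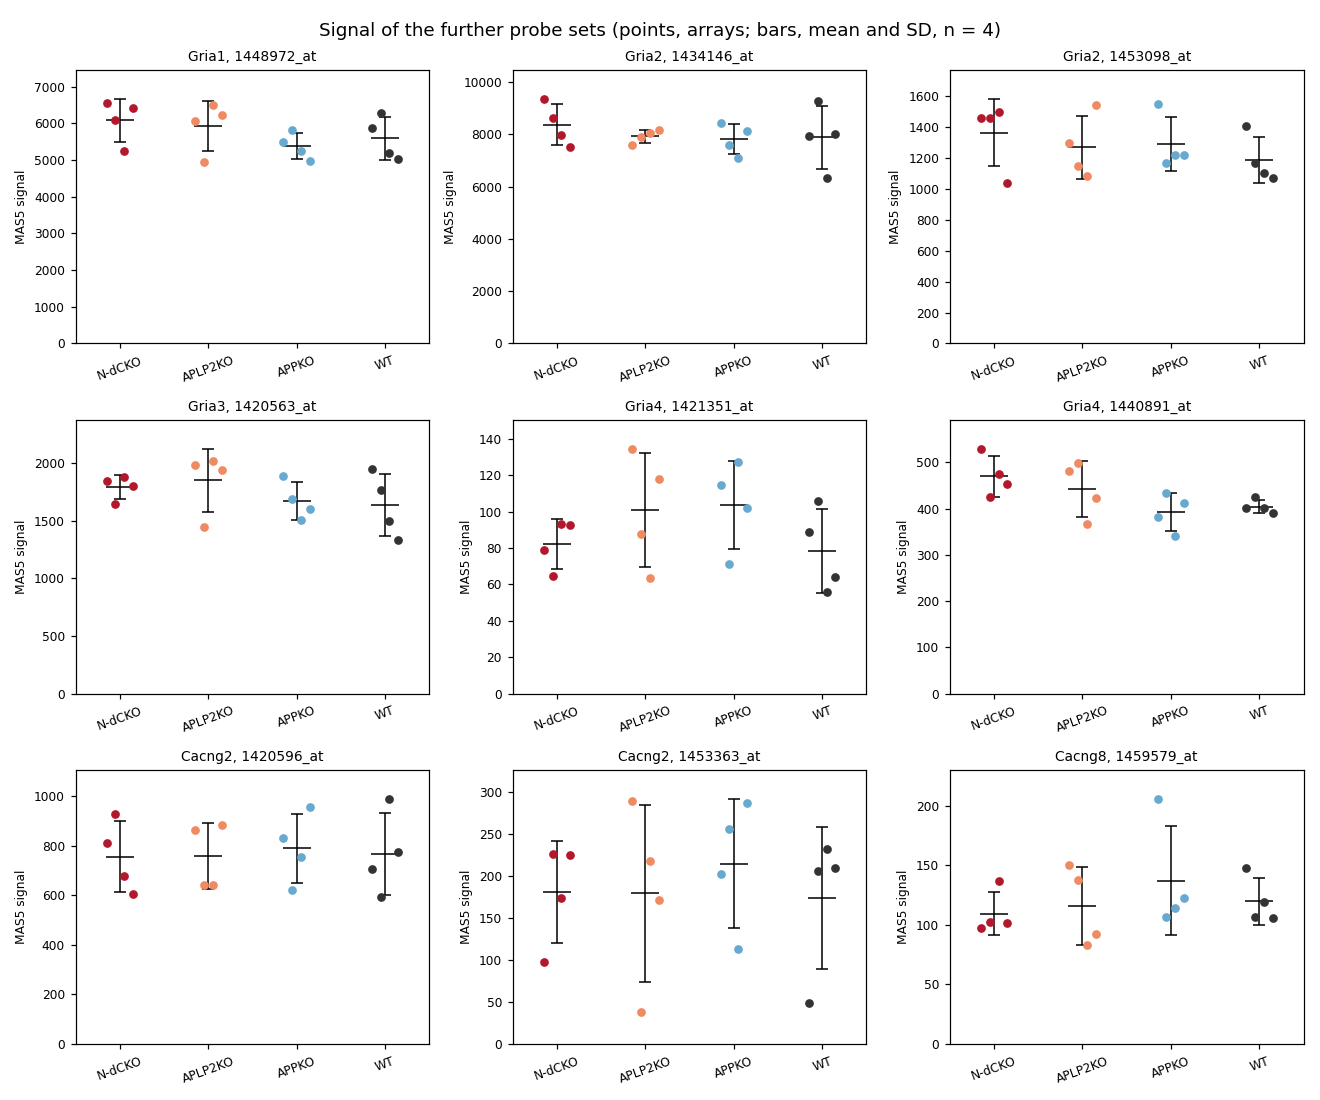
MAS5 signal (linear axis from 0) of the 9 further probe sets of Gria1, Gria2, Gria3, Gria4, Cacng2 and Cacng8, by genotype, with 1 point per array in order of its number and bars for the mean and SD of 4 arrays. All panels overlap between N-dCKO and WT except Gria4 1440891_at, where the lowest N-dCKO array (424.3) is just above the highest WT array (423.9).

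The genes most alike to each member were sought among 11656 genes, as the 2 with the highest correlation of log2 signal over the 16 arrays after each group mean was taken away. For Gria1 they were Pclo (0.89) and Slc24a2 (0.87), for Gria2 Dynll1 (0.92) and Cox5b (0.91), for Gria3 Atp5md (0.95) and Kcnj3 (0.89), and for Gria4 Ankle2 (0.89) and Rfc1 (0.84). For Cacng2 they were Vps13c (0.89) and Wnt2 (0.89), for Cacng3 4930563E22Rik (0.86) and Vps41 (0.85), for Cacng8 Fem1c (0.84) and D930016D06Rik (0.84), and for Cnih2 Ptpn12 (0.91) and Dtx4 (0.91). Among the members themselves the highest such value was 0.69 between Gria2 and Cnih2 and the lowest -0.63 between Gria3 and Cnih2. The highest of 11656 values over 16 arrays can be high without any relation between the genes. Each value also rests on 1 probe set per gene, so the genes named are a description only.

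Other genes of the AMPA receptor pathway were followed on 3 lists with 43 genes, of which 40 were on the array and passed the filter, each by its probe set with the highest signal. None was called by limma in any comparison. At an unadjusted p below 0.05 there were 7 in N-dCKO against WT, 2 in APLP2KO against WT and 1 in APPKO against WT, where 11.2%, 7.1% and 4.9% of all probe sets were. There were 5 in N-dCKO against APPKO, 3 in N-dCKO against APLP2KO and 2 in APLP2KO against APPKO, where 7.48%, 7.5% and 7.3% of all were, and 1 for the interaction, where 4.14% were. Of 15 other auxiliary and assembly proteins, 6 had a positive and 9 a negative log2 fold change in N-dCKO against WT (median -0.01). Of 16 anchoring, trafficking and organizer genes 12 were positive (median 0.04), and of 9 enzymes acting on the receptor 7 were positive (median 0.05). The median over all 40 was 0.03 in N-dCKO, -0.02 in APLP2KO and -0.01 in APPKO against WT.

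The pathway gene with the smallest p in N-dCKO against WT was Shisa6, an auxiliary protein that keeps receptors at the synapse. It read 1691, 1574, 1574 and 1589 on the N-dCKO arrays, 1652, 1509, 1791 and 1587 on the APLP2KO arrays, 1859, 1669, 1829 and 1777 on the APPKO arrays and 1744, 2018, 1776 and 2028 on the WT arrays. All N-dCKO arrays were below all WT arrays, where 6.77% of all tested probe sets did not overlap in either direction. Shisa6 was picked by its p in this same comparison. Its log2 fold change against WT was -0.23 ± 0.07 in N-dCKO (unadjusted p = 0.00265, limma adjusted p = 0.132) and -0.21 ± 0.07 in APLP2KO (0.467). Camk2g, a subunit of calcium/calmodulin-dependent kinase II, which phosphorylates GluA1, averaged 3890.2 in N-dCKO and 3289.96 in WT (0.24 ± 0.09, adjusted p = 0.317). Frrs1l, which acts in assembly of the receptor in the endoplasmic reticulum, averaged 5882 in N-dCKO and 5423 in WT (0.12 ± 0.05, adjusted p = 0.334). These 3 are given as values only.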

How the data were processed

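RNA of 16 hippocampal samples was measured on Affymetrix arrays. The authors deposited a linear intensity per probe set; MAS5 is named, without a version, in the submitters' processing notes, and each array had a 2% trimmed mean of 500.003. That scaling was kept, and no detection calls were used. Gene names come from the platform annotation, updated by gene number through a RefSeq table of GRCm38.p6, which changed 0 of the symbols.

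Signals were taken as log2(signal + 9), which understates changes of dim genes. The 64 control probe sets were left out, and the 22503 probe sets whose mean log2 signal reached the array-wide median were tested. They were fitted in limma 3.58.1 (R 4.3.3) with 1 mean per group over all 16 arrays, a variance trend with intensity and two-sided p-values adjusted by Benjamini-Hochberg. The fit was tried on simulated data with independent noise on each array. That noise lacks the shared deviations of same-numbered arrays, so the trial checks the code and not the p-values of these data. Replicate numbers were checked for pairing: deviations from the group means of same-numbered APPKO and WT arrays correlated at 0.18 to 0.30, over 0.1 in 4 of 4 pairs, so a paired fit was added for that comparison. The number of arrays limits the precision. Each probe set was tested by itself, since the genes are described probe set by probe set. Values after ± are SE for fold changes and SD for signals.

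Every member is described, with array values for its probe set with the highest mean and for any with an unadjusted p below 0.05. Of the other pathway genes the 3 with the smallest p in N-dCKO against WT are named. The members and lists were chosen with earlier results of these data known. Alternatives were other scalings, pseudocounts and filters, 1 value per gene, array weights, leaving out the variance trend, a block for the replicate number, 2 covariates, only the groups compared, and leaving out each array.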

Additional observations from a re-analysis of the deposited data

Results flagged for a closer look

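Of 68 groups of 4 arrays, 7 held an array whose gap to the nearest of the others was wider, as a share of the group's range, than Dixon's 95% critical value, a limit that chance passes in about 1 of 20 groups. In Gria2 1453098_at, N-dCKO array 4 read 1042, where the next was 1461, and APPKO array 1 read 1553, where the next was 1223. In Gria3 1420563_at, APLP2KO array 2 read 1444, against 1942 for the next. In Gria4 1435722_at, WT array 3 read 1324 and the next WT array 1179, and without it the N-dCKO value against WT was 0.26 (limma adjusted p = 0.233). In Cacng2 1440210_at, APPKO array 3 read 1476 and the next 1273. In Cacng2 1453363_at, WT array 1 read 48.3 and the next 206. In Cacng8 1459579_at, N-dCKO array 3 read 137 and the next 102.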

How the results depend on the processing

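The count of called member probe sets was 0 in all 8 tests and stayed 0 under each of the 30 alternatives (29 for the interaction and for any difference among groups), the fits without 1 array included, all by limma. The smallest adjusted p of any member under any of them was 0.142, for Gria4 1435722_at in N-dCKO against WT without APLP2KO array 3, and this value was positive in all 30 fits, between 0.09 and 0.26. The number of probe sets called over the whole array did move: 150 in N-dCKO against WT, and 17 to 263 under the alternatives; 33 in APLP2KO against WT, and 8 to 44; 3 in APPKO against WT, and 1 to 21; 59 in N-dCKO against APPKO, and 8 to 85; 6 in N-dCKO against APLP2KO, and 2 to 43; 35 in APLP2KO against APPKO, and 13 to 55; 0 in the interaction, and 0 to 11; 98 for any difference among groups, and 34 to 169.

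Of 3402 values of single probe sets under an alternative, 3352 moved by less than 1 residual SD and 50 by more, none of them called in any fit. Centring on the median signal shifted all probe sets of a knockout against WT down by less than 0.1 on the log2 scale. Outside APPKO against WT, same-numbered arrays correlated between -0.08 and 0.24, with at most 1 of 4 pairs over 0.1 in any comparison, so the numbers are not taken as pairs there, although 13 of 16 arrays lay closest to one of their own number. With the replicate number as a block over all arrays, 0 members were called in every comparison, and 263 probe sets in N-dCKO against WT and 6 in APPKO against WT. The paired fit of APPKO and WT alone, chosen after seeing the data, changed no call of a member. The dim probe sets of Cacng2 (1453363_at) and Cacng8 had wide intervals.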
